A study of Mus musculus with 6 samples.

Results

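Mitosis and G2/M genes encode the proteins that take a cell with replicated DNA through chromosome condensation, spindle attachment, separation of the sister chromatids and division of the cytoplasm. The set held 42 named genes and was defined by symbol in the deposited gene table: 39 of the symbols were found there, each in 1 row, out of 37867 gene models in all, and all 39 were tested by the authors. Of the other members, Cdk1 and Kif20b were listed under the older names Cdc2a and Mphosph1 and are described apart, and Ncapg was not matched. RNA came from double-positive thymocytes, the CD4+CD8+ stage of T cell development, sorted to high purity from C57bl6 mice lacking miR-181a-1 and miR-181b-1 (KO, 3 populations) and from wild type mice (WT, 3 populations). The labels give no age or sex, do not say which cells carry the deletion or whether the populations came from separate animals, and do not tie either of the RNA extraction methods named to a population.

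The deposited table gives 1 pooled value per genotype and gene model, in FPKM, fragments counted relative to transcript length and library depth. Replicates could not be analysed one by one, no SD can be given, and the depth is unknown. Each log2 ratio is KO over WT, given with the standard error that the authors' test statistic implies (SE), and a gene is called changed at a q, a p-value adjusted over all 13834 tested models, under 0.05 in the authors' deposited table. Whether those q values measure a spread between animals is not known from the sources used here, and any spread may be technical. FPKM summed over all models to 297352 in KO and 360688 in WT. The defining genes of the stage were abundant in both genotypes, with Cd4 at 907 FPKM in KO and 732 FPKM in WT, and Rag1 at 1193 FPKM in KO and 1220 FPKM in WT. Among markers of the preceding double-negative stage, 1 of 5 tested genes was called, Il2ra at 29.4 FPKM in KO and 2.89 FPKM in WT, and the summed level of the 6 listed was 36.3 FPKM in KO and 9.53 FPKM in WT. Of the 5 tested, 3 had ratios above 0 and 2 below, with a median log2 ratio of 0.36. Kit, which marks that stage and had the lowest ratio of the 5, stood at 0.370 FPKM in KO and 0.672 FPKM in WT, and Hes1 at 0.0713 FPKM in KO and 0.0701 FPKM in WT. Ptcra, the pre-T cell receptor chain, was in the list of 7 double-positive genes, although selection on that receptor precedes the stage. It was called lower, at 9.59 FPKM in KO and 26.1 FPKM in WT, and no other gene of the 7 was called. Ptcra is not among the double-negative markers counted above, and its direction is opposite to that of Il2ra. Among 5 tested markers of the mature single-positive stage, 1 was called higher and none lower, with 3 ratios above 0 and 2 below. Their summed level was 153 FPKM in KO and 99.3 FPKM in WT, and the highest level among them was 144 FPKM in KO and 88.7 FPKM in WT. Of other cell types, the myeloid gene Itgam stood at 1.02 FPKM in KO and 2.11 FPKM in WT and the epithelial gene Epcam at 0.932 FPKM in KO and 2.30 FPKM in WT, both called lower. The B cell list had 1 tested gene, at the higher level of 15.7 FPKM in KO and 20.1 FPKM in WT. The erythroid list had 1 tested gene, at 0.561 FPKM in KO and 1.15 FPKM in WT. Neither of these was called. The part of such cells in the values of the mitosis genes was not tested.

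As background, mitosis starts when cyclin B binds the kinase Cdk1 and Cdc25 phosphatases remove its inhibitory phosphates. The spindle checkpoint then holds the ubiquitin ligase APC/C until every kinetochore is attached, after which Cdc20 lets APC/C destroy securin and cyclin B, and separase opens cohesin. In the thymus, most double-positive cells are small and resting, and those that divide are mainly the large blasts that have just passed selection on the pre-T cell receptor. In a bulk measurement of this kind, fewer dividing cells and less RNA per dividing cell cannot be told apart. Transcription of these genes in late cell cycle is known to run through promoters with a CHR, the cell cycle genes homology region read by MuvB complexes, and CCAAT boxes, read by NF-Y.

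Those promoter elements are shown first. The set was defined by symbol without them, but they were already known in genes of this kind. Their shares describe the sequences and are not a result of the comparison of KO with WT. RefSeq gave promoters of 250 bases before to 50 bases after the annotated start for 32 of the 39 genes (GRCm38.p6). A CHR, searched as TTTGAA or TTCGAA on both strands, was present in 25 of 32 (78.1%), against 16.4% of 8181 tested genes with a promoter in the table and 21.7% of all 27025 genes there. CCAAT, searched on both strands, was present in 24 of 32 (75.0%), against 43.6% of the tested genes. Both occurred together in 22 of 32 (68.8%), against 8.24% of the tested genes. The words searched can share end letters, and 0 of the CHR matches in the first listed promoters shared a base with a CCAAT match. Where genes had several promoters, a motif in any of them was counted. Of 34 CHR matches in the first listed promoters, 23 lay within 50 bases of the start. In the 22 promoters with a CCAAT upstream of a CHR, the nearest such pair started 33.5 bases apart at the median, with a range of 9 to 153. A match is a run of letters and not a measured binding site.

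Promoters of 4 members are printed, 2 of genes called lower in KO (Cdc20 and Espl1) and 2 of genes that were not called (Ccnb2 and Top2a), with CHR and CCAAT matches of either strand in capitals, 5′ to 3′ on the strand of the gene. They lie at chr4:118437294-118437593 (minus strand), chr15:102296043-102296342 (plus strand), chr9:70421505-70421804 (minus strand) and chr11:99024140-99024439 (minus strand) in GRCm38.p6, in the order shown.
Cdc20: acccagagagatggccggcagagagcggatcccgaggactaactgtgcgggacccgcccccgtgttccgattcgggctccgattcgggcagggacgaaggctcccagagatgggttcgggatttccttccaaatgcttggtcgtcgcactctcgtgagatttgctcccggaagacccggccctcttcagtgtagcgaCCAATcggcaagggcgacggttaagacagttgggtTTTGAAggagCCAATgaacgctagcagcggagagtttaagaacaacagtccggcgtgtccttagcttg
Espl1: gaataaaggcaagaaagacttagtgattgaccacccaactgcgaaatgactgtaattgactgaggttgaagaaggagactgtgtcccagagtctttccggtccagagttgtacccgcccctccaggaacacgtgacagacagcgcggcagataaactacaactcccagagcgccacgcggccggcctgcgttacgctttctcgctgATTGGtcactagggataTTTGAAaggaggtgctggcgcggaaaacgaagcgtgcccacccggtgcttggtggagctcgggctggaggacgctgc
Ccnb2: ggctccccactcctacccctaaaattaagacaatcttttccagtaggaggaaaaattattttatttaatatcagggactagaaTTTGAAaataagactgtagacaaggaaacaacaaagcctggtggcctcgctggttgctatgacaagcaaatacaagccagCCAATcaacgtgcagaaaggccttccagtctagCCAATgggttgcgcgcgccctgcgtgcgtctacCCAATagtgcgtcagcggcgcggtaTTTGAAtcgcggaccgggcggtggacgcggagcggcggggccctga
Top2a: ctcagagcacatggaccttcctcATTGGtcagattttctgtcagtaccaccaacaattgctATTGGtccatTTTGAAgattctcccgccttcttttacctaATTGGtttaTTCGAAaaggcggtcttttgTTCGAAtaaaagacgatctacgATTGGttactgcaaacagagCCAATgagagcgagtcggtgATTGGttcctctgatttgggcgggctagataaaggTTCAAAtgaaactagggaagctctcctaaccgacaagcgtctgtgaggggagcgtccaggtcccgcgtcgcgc
Both elements stand in all 4 printed promoters, but not in those of all uncalled genes. The 22 genes with both included 3 called lower, Cdc20, Espl1 and Bub3, against 15.3% of all tested models called lower and 1.79% higher. Foxm1, the other member called lower, had no promoter among those searched. Whether calls go with either motif was not tested. The 8 genes without CCAAT included none called, and of these Birc5, Mad2l1, Ncaph, Nuf2 and Pttg1 lack a CHR as well. The 25 genes with a CHR had a median log2 ratio of -0.12 (range -1.03 to 0.21, 3 called lower), and the 7 without one had -0.21 (range -0.43 to 0.27, none called).

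**Figure D1:**
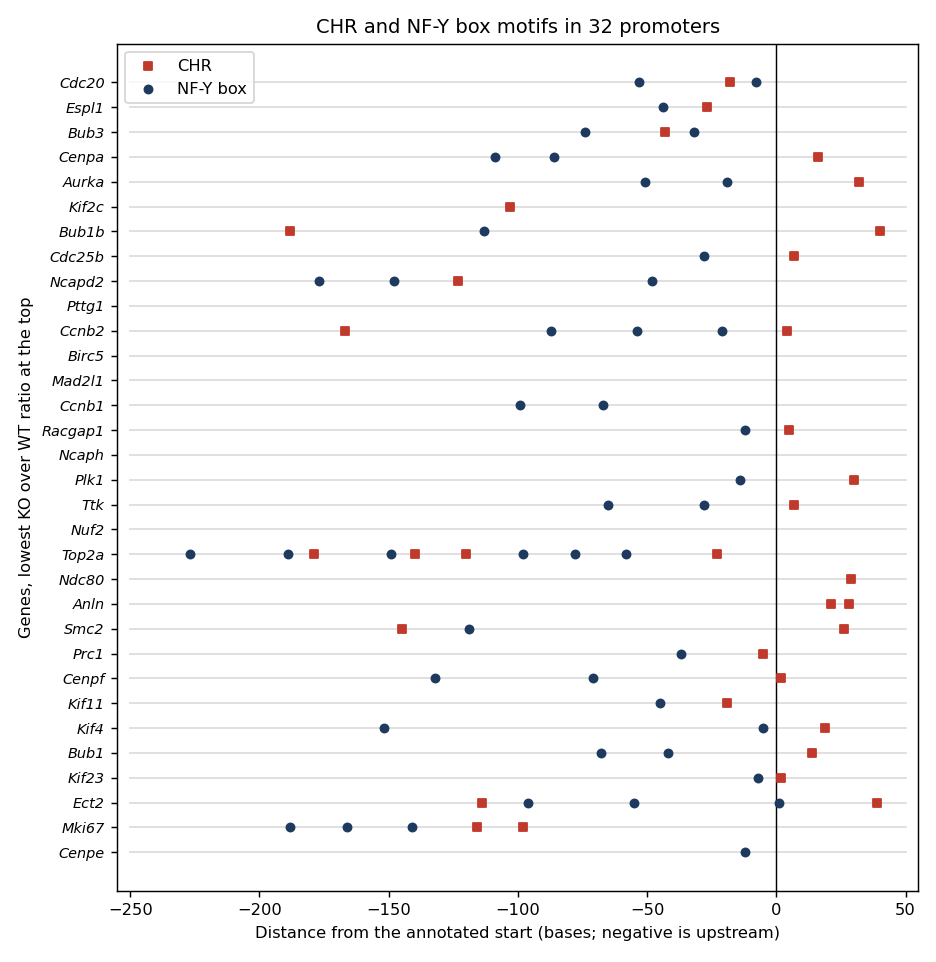
Positions of CHR (squares) and NF-Y box (circles) motifs in the promoters of 32 mitosis and G2/M genes, by distance in bases from the annotated start, with the gene of lowest KO over WT ratio at the top. For genes with several promoters the first listed is drawn. Within 50 bases of the start lie 23 of 34 CHR matches, in genes from Cdc20 (log2 -1.03) to Ect2 (0.20). Cenpe, the gene of highest ratio drawn, has no CHR.

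The mature microRNAs of the deleted genes are shown with their seed (bases 2 to 8), through which a microRNA pairs with its targets, in capitals. They lie on the plus strand of chromosome 1 in GRCm38.p6, at chr1:137966468-137966490 and chr1:137966650-137966673, and have the same seed. As background, the same mature microRNAs can also be made from the Mir181a-2 and Mir181b-2 genes.
mmu-miR-181a-5p: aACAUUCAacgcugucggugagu
mmu-miR-181b-5p: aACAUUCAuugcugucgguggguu
A 7-base match to that seed, TGAATGT, was found in the 3′ UTR of the GENCODE reference transcript of 7 of 39 members (17.9%), and in 17.1% of 9956 tested coding genes with a 3′ UTR. The share among the members was thus close to that of all genes. The 7 genes were Ccna2, Ccnb1, Bub3, Cenpf, Kif4, Aurkb and Smc2. A match followed by an A was found in 3 of the 39 members, against 5.50% of the 9956 tested genes. Those sites are shown with the match in capitals.
Ccna2: caatcacttcTGAATGTagatggtatag
Bub3: gtcatttgacTGAATGTaccatgcctta
Smc2: aattttttggTGAATGTaggacctagca
Of these 3, only Bub3 was called, lower in KO. Cyclin A2 (Ccna2) stood at 91.8 FPKM in KO and 87.2 FPKM in WT, and the condensin subunit Smc2 at 39.5 FPKM in KO and 38.0 FPKM in WT. The log2 ratios of the 7 genes ranged from -0.89 to 0.14 with a median of 0.05, and the 32 members without a match had a median of -0.18. That difference was not tested. With the dependence on GC and length described below removed, values were 0.03 for Ccna2, -0.31 for Ccnb1, -0.65 for Bub3 and -0.23 for Cenpf. They were 0.11 for Kif4, -0.14 for Aurkb and -0.31 for Smc2, and the median of the members was -0.13.

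The genotypes were compared to find transcripts whose level differs without these microRNAs. Of the 39 mitosis and G2/M genes, 4 were called lower in KO (10.3%), Cdc20, Espl1, Bub3 and Foxm1, and none was called higher. Over all tested models of the authors' deposited table, 15.3% were called lower and 1.79% higher. At an unadjusted p under 0.05, 7 members (17.9%) were lower and 1 was higher in KO, the last being Smc4, against 22.7% lower and 4.76% higher among all tested models. The median log2 ratio of the members was -0.17, the same as the median of all tested models to this precision. Their spread was narrower, with an SD across genes of 0.36, against 0.86 over all tested models, many of which are less abundant. Among models with a mean of at least 10 FPKM, 3 of 36 members (8.33%) were called lower, and none higher, against 20.8% lower and 2.34% higher among such models. With a minimum of 1 FPKM, 4 of 39 members were lower and none higher, against 17.8% lower and 2.03% higher among models. At q under 0.01 in the authors' deposited table, 3 members were lower and none higher, against 10.1% lower and 0.745% higher. At q under 0.10 in the authors' deposited table, 5 members were lower and none higher, against 18.7% lower and 2.96% higher. With ratios centred on the median of all models, 3 members were lower and Smc4 was higher, against 10.8% lower and 3.61% higher. With KO and WT scaled to equal FPKM sums, none was lower and Smc4 was higher, against 8.65% lower and 6.19% higher. Under none of these rules was the share of members called lower above that of the models.

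Precision limited what could be seen in single genes. The implied standard errors of the members ran from 0.22 to 0.60 on the log2 scale with a median of 0.27, so that a typical 95% interval reached 0.53 to either side. Intervals of 31 members included 0, those of 7 lay below it, and that of Smc4 lay above it. Ratios of KO over WT ran from 0.491 for Cdc20 to 1.47 for Smc4.

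**Figure D2:**
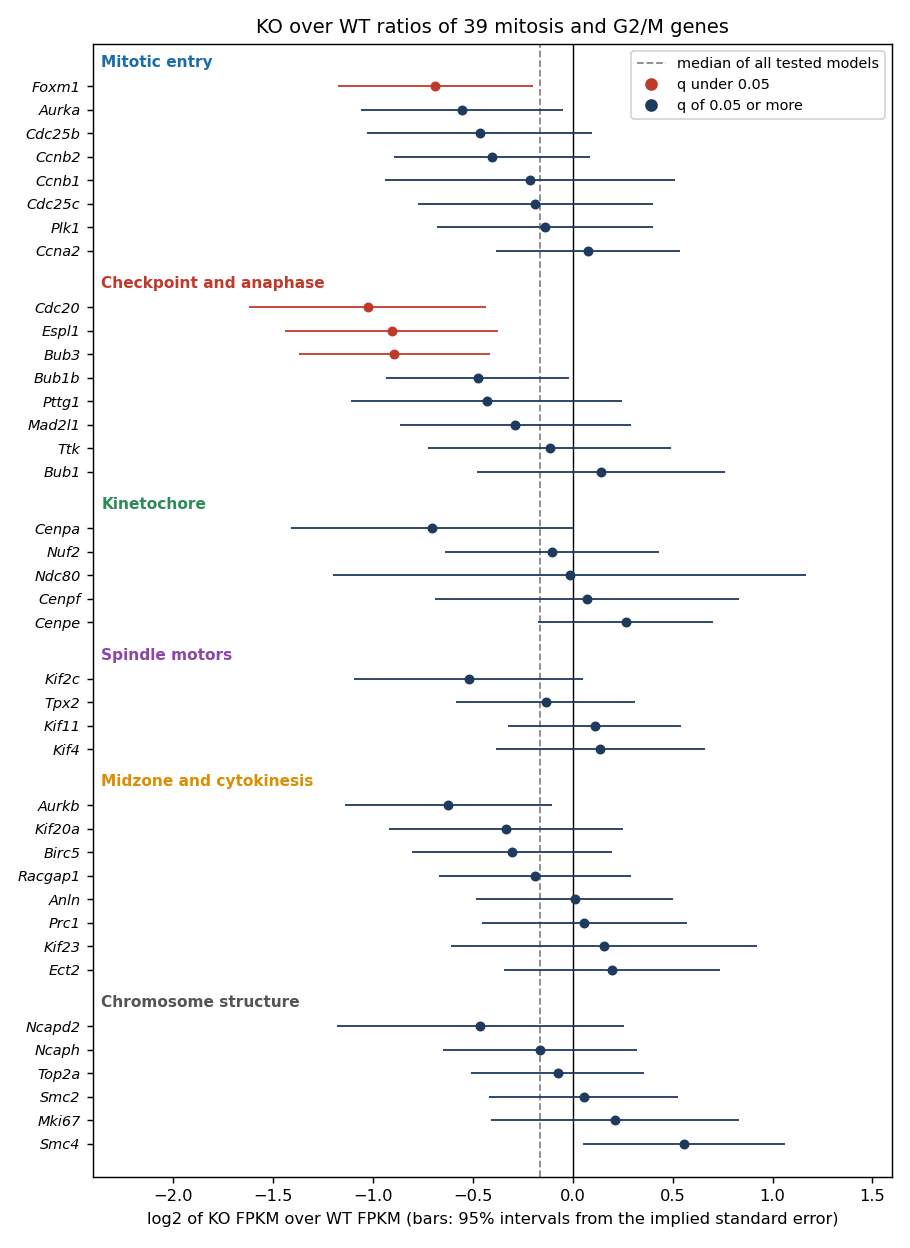
Log2 of KO FPKM over WT FPKM for 39 mitosis and G2/M genes by role, with 95% intervals from the implied standard error as bars; the dashed line is the median of all tested models. The 4 called genes, 3 of them of the checkpoint and anaphase group, lie between -1.03 and -0.69. None of the 4 was called with equal FPKM sums or with the dependence on GC and length removed.

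The members lay in the upper part of the table by level. The median member stood at 34.2 FPKM in KO and 38.0 FPKM in WT, at percentile 85.8 of tested models in KO and 84.9 in WT. Summed over the 39 genes, the level was 2058 FPKM in KO and 2164 FPKM in WT, which is 0.692% of all FPKM in KO and 0.60% in WT. The order of the genes by level was much alike, with Spearman's rho of 0.942 between KO and WT across the 39 genes, given as a description of values that share 2 pooled measurements. Smc4, Mki67, Top2a, Birc5, Ncapd2 and Ccna2 were the 6 most abundant in both genotypes.

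**Figure D3:**
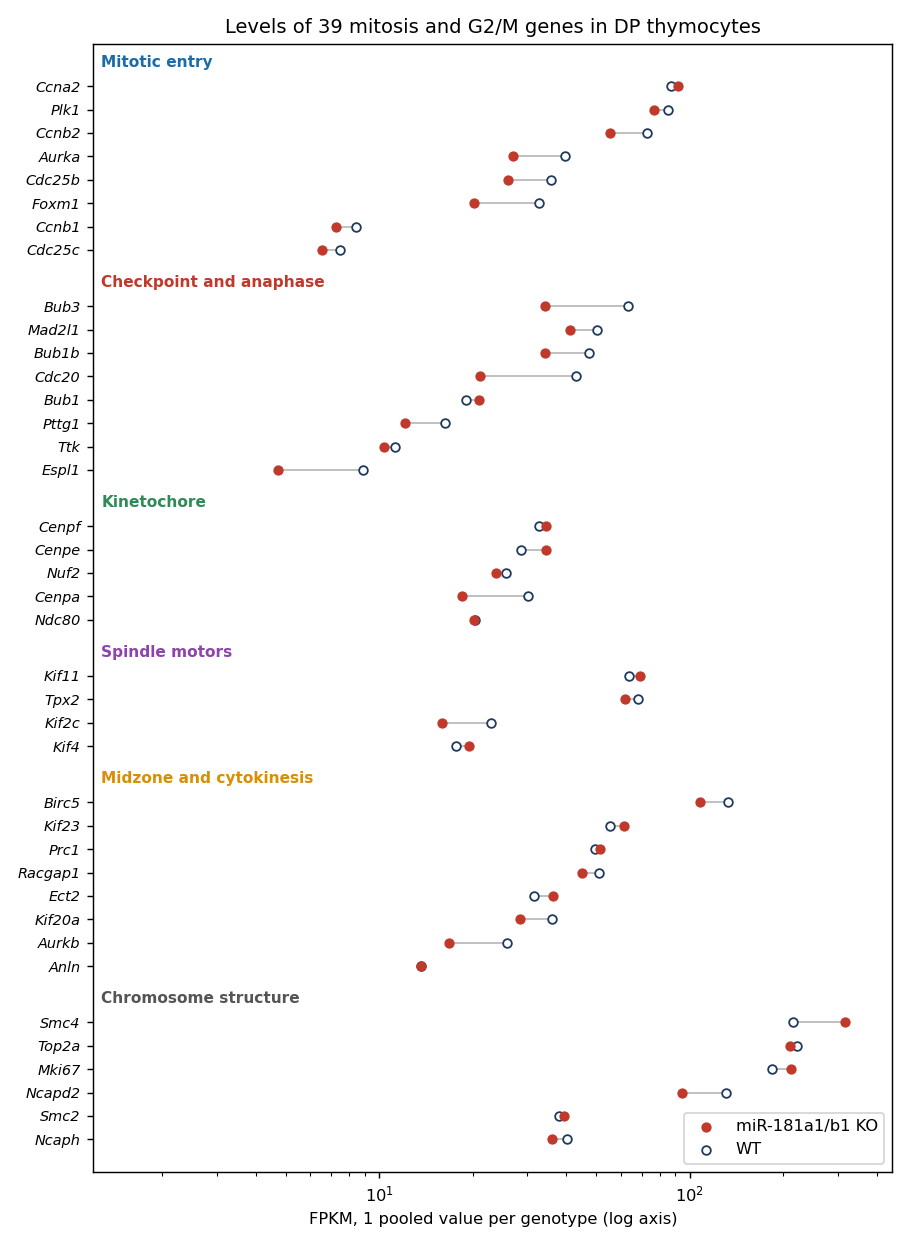
Levels of 39 mitosis and G2/M genes in FPKM on a log axis, 1 pooled value per genotype, KO filled and WT open, grouped by role. Values run from 4.72 FPKM (Espl1) to 316 FPKM (Smc4) in KO and from 7.48 FPKM (Cdc25c) to 222 FPKM (Top2a) in WT; within a gene the genotypes lie close together beside the spread between genes.

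Among regulators of mitotic entry, 1 of 8 was called lower and none higher, against 15.3% and 1.79% of all tested models. Their median log2 ratio was -0.31. Foxm1, the forkhead factor that drives transcription of late cell cycle genes, stood at 20.3 FPKM in KO and 32.7 FPKM in WT. The ratio was -0.69 ± 0.25 (log2, SE), and the authors' deposited table gave q = 0.0361. Foxm1 lies on chromosome 6 from 128313011 to 128335162 (mm9) and is listed together with the name 4933413G19Rik. Aurka, the kinase that matures centrosomes, stood at 26.9 FPKM in KO and 39.6 FPKM in WT (log2 -0.56 ± 0.26 SE) and was not called, with q = 0.130 in the authors' deposited table.

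The cyclins and phosphatases of entry all had 95% intervals that included 0. Ccna2, which acts with Cdk kinases from S phase to early mitosis, was the most abundant of the group and the one with the highest log2 ratio, 0.07 ± 0.23 (SE). Ccnb2 stood at 55.3 FPKM in KO and 73.2 FPKM in WT, and the other B-type cyclin, Ccnb1, at 7.24 FPKM in KO and 8.40 FPKM in WT. The level of Ccnb2 was thus 7.63 times that of Ccnb1 in KO and 8.71 times in WT, per length of transcript. The phosphatase Cdc25b stood at 25.9 FPKM in KO and 35.8 FPKM in WT, and its relative Cdc25c at 6.57 FPKM in KO and 7.48 FPKM in WT. Plk1, the kinase that promotes entry and spindle assembly, stood at 77.0 FPKM in KO and 84.9 FPKM in WT, in a model merged with its neighbour Dctn5, so that the value is not that of Plk1 alone. Cdk1, the kinase of mitotic entry, stood under its older name at 17.3 FPKM in KO and 27.0 FPKM in WT (log2 -0.64 ± 0.25 SE), with q = 0.0595 in the authors' deposited table, and it was not called. Its adjusted p was 0.0472 over models with a mean of at least 10 FPKM and 0.0532 over those with at least 1 FPKM, 0.207 after centring and 0.354 with equal FPKM sums. With the dependence on GC and length removed its value was -0.67, with an adjusted p of 0.187.

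In the checkpoint and anaphase group, 3 of 8 genes were called lower and none higher, against 15.3% and 1.79% of all tested models. Of the 8 ratios, 7 were below 0, with a median log2 ratio of -0.45. After centring 3 were called lower, and with equal FPKM sums none was. With the dependence on GC and length removed none was called. The 7 genes with such a value were all below 0, with a median of -0.21. Cdc20, the activator of APC/C and the target of the spindle checkpoint, stood at 21.2 FPKM in KO and 43.1 FPKM in WT. At a log2 ratio of -1.03 ± 0.30 (SE), with q = 0.00700 in the authors' deposited table, it had the lowest ratio of all members. Espl1, the protease separase that cleaves cohesin, stood at 4.72 FPKM in KO and 8.86 FPKM in WT, a log2 ratio of -0.91 ± 0.27 (SE), with q = 0.00844 in the authors' deposited table. Bub3, a checkpoint protein that brings Bub1 and BubR1 to kinetochores, stood at 34.1 FPKM in KO and 63.3 FPKM in WT, a log2 ratio of -0.89 ± 0.24 (SE), with q = 0.00313 in the authors' deposited table. In mm9, their models lie on chromosome 4 from 118100697 to 118109854 (Cdc20), on chromosome 15 from 102126755 to 102154787 (Espl1) and on chromosome 7 from 138703904 to 138715412 (Bub3). The Cdc20 model overlaps that of Elovl1, a fatty acid elongase at 10.9 FPKM in KO and 12.3 FPKM in WT.

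The other checkpoint genes were not called. Bub1b, which encodes BubR1, stood at 34.2 FPKM in KO and 47.5 FPKM in WT (q = 0.159 in the authors' deposited table). The kinase Bub1 had the highest ratio of the group, at 21.0 FPKM in KO and 19.1 FPKM in WT. Ttk, the kinase Mps1 that starts the checkpoint signal, stood at 10.4 FPKM in KO and 11.2 FPKM in WT. Mad2l1, which holds Cdc20 inactive, stood at 41.1 FPKM in KO and 50.2 FPKM in WT, and Pttg1, securin, at 12.1 FPKM in KO and 16.3 FPKM in WT. The level of Bub3 was 1.62 times that of its partner Bub1 in KO and 3.32 times in WT.

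No kinetochore gene of 5 was called, and their median log2 ratio was -0.02. Cenpa, the histone H3 variant of centromeres, had the lowest ratio, at 18.5 FPKM in KO and 30.1 FPKM in WT (log2 -0.70 ± 0.36 SE), with q = 0.185 in the authors' deposited table. Cenpe, a kinesin that carries chromosomes to the spindle equator, had the highest, at 34.4 FPKM in KO and 28.6 FPKM in WT (log2 0.27 ± 0.22 SE). Cenpf, a large protein of the outer kinetochore and the most abundant of the group, stood at 34.4 FPKM in KO and 32.7 FPKM in WT. The microtubule-binding partners Ndc80 and Nuf2 stood at 20.2 and 23.8 FPKM in KO, and at 20.4 and 25.6 FPKM in WT. The Ndc80 model spans 1259815 bases and overlaps models of Wdr43 and Smchd1, and its implied standard error of 0.60 was the largest of the set.

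Among the 4 spindle genes none was called, and the median log2 ratio was -0.01. Kif11, the motor that pushes spindle poles apart, stood at 69.0 FPKM in KO and 64.0 FPKM in WT, and Tpx2, the activator of Aurora A on spindles, at 62.0 FPKM in KO and 68.1 FPKM in WT. Kif2c, which takes microtubules apart at centromeres, had the lowest ratio, at 15.9 FPKM in KO and 22.8 FPKM in WT (log2 -0.52 ± 0.29 SE). The chromokinesin Kif4 had the highest, at 19.5 FPKM in KO and 17.7 FPKM in WT (log2 0.14 ± 0.27 SE). Kif20b, a kinesin of late mitosis listed under its older name, stood at 24.9 FPKM in KO and 20.6 FPKM in WT.

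Genes of the spindle midzone and cytokinesis split evenly, with 4 of 8 ratios below 0, a median log2 ratio of -0.09 and none called. Aurkb, the kinase of the chromosomal passenger complex, had the lowest ratio, at 16.8 FPKM in KO and 25.9 FPKM in WT (log2 -0.62 ± 0.26 SE), with q = 0.0881 in the authors' deposited table. Its partner Birc5, survivin, was the most abundant of the group, at 108 FPKM in KO and 133 FPKM in WT. Ect2, the exchange factor that switches on RhoA at the cleavage furrow, had the highest ratio, at 36.2 FPKM in KO and 31.6 FPKM in WT (log2 0.20 ± 0.28 SE). Its activator complex stood at 61.6 FPKM in KO and 55.3 FPKM in WT for Kif23, and at 44.9 FPKM in KO and 51.1 FPKM in WT for Racgap1. Prc1, which bundles midzone microtubules, stood at 51.4 FPKM in KO and 49.4 FPKM in WT. The ring scaffold anillin, Anln, stood at 13.7 FPKM in KO and 13.6 FPKM in WT. The motor Kif20a stood at 28.5 FPKM in KO and 35.9 FPKM in WT, in a model that overlaps that of Cdc23.

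The chromosome structure group held the most abundant members, and none of 6 was called, with a median log2 ratio of -0.01. Smc4, the ATPase subunit that condensin I and II have in common, stood at 316 FPKM in KO and 215 FPKM in WT, a log2 ratio of 0.56 ± 0.26 (SE), with q = 0.129 in the authors' deposited table. Its ATPase partner Smc2 differed by less than its error, so that the level of Smc4 was 8.0 times that of Smc2 in KO and 5.65 times in WT. Of the condensin I subunits, Ncapd2 had the lowest ratio of the group, at 94.7 FPKM in KO and 131 FPKM in WT (log2 -0.46 ± 0.37 SE), and Ncaph stood at 36.0 FPKM in KO and 40.4 FPKM in WT. Top2a, the topoisomerase that untangles sister chromatids, stood at 210 FPKM in KO and 222 FPKM in WT. Mki67, the coat protein of mitotic chromosomes known as Ki-67, stood at 213 FPKM in KO and 184 FPKM in WT. Its model overlaps 2 others, an antisense model at 193 FPKM in KO and 166 FPKM in WT and one named Ki-67 at 105 FPKM in KO and 96.7 FPKM in WT. The sources used here do not say whether reads were counted by strand, so these 3 values are uncertain. Models of 10 of the 39 members overlap another model with a mean of at least 1 FPKM.

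Members with a higher GC content had lower ratios, and so had coding genes in general. Across 38 members with a usable reference transcript, Spearman's rho between the ratio and the GC content of the transcript was -0.785, and it was -0.764 across 8995 coding genes whose mean level reached 1 FPKM. Both are correlations across genes measured in the same 2 pooled samples and are given as descriptions. Members had a median GC content of 47.5%, against 50% for those coding genes. The 12 members of highest GC content (50.2% to 56.1%) all had ratios below 0, with a median of -0.54, and included all 4 called genes. Of the 2828 coding genes in that GC range, 22.8% were called lower and the median was -0.53. The 12 members of lowest GC content (39.7% to 44.2%) had a median of 0.06, and 7 of them had ratios above 0. Of the 1396 coding genes in that lower range, 0.573% were called lower and the median was 0.22.

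The extremes of the set show the difference in composition. The middle 90 coding bases of Smc4, the member with the highest ratio, and of Cdc20, the member with the lowest, are printed from the GENCODE reference transcripts with G and C in capitals.
Smc4: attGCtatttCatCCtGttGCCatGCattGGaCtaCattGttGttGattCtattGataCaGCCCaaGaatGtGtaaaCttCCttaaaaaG
Cdc20: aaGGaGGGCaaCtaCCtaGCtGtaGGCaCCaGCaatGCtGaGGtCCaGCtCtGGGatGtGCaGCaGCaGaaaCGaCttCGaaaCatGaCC
G and C made up 35.6% of the Smc4 stretch and 54.4% of the Cdc20 stretch. Over the whole coding sequence, G or C stood at the third codon position in 35.0% of codons of Smc4 and 58.8% of Cdc20.

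When the dependence on GC content and length, fitted over all 8995 coding genes, was subtracted, none of the 38 members was called in either direction, against 0.989% of coding genes lower and 0.812% higher. At an unadjusted p under 0.05 from the residuals and the implied standard errors, Bub3 was lower in KO and Plk1, in its merged model, was higher, against 5.14% of coding genes lower and 4.94% higher. Bub3 then had a value of -0.65, and the adjusted p from these residuals was 0.174. Cdc20, Espl1 and Foxm1 came to -0.20, -0.21 and -0.11, and Smc4 to 0.25. The median of the members was then -0.13, with 28 of 38 values below 0, against a median of 0.00 for all coding genes. The origin of this dependence was not tested.

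**Figure D4:**
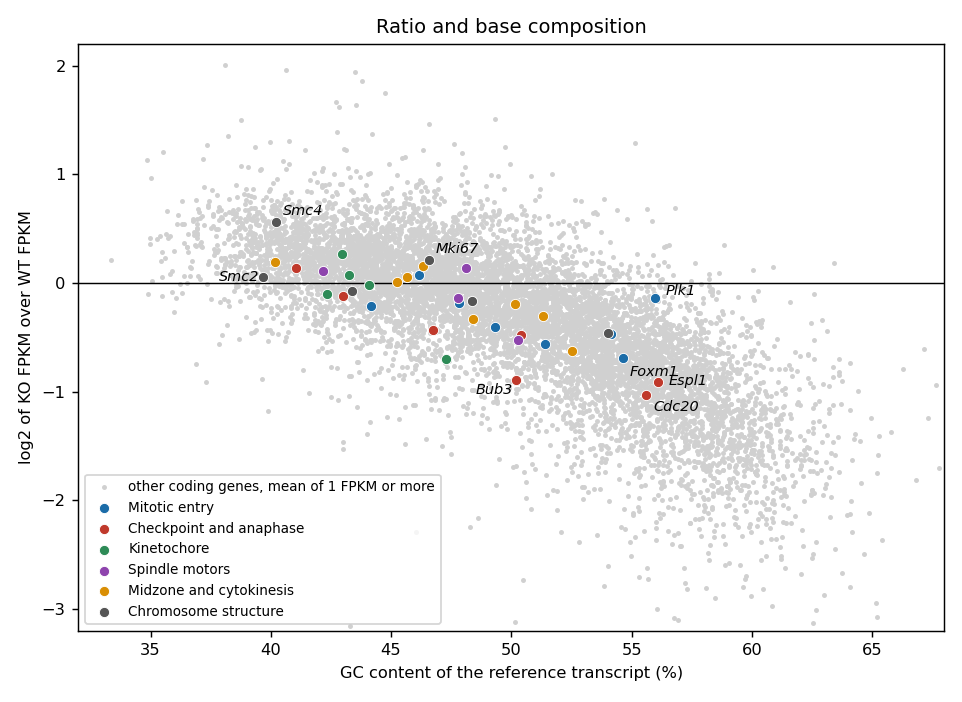
Log2 of KO FPKM over WT FPKM against GC content of the reference transcript for 8995 coding genes (grey; 19 lie outside the axes) and 38 mitosis and G2/M genes, coloured by role. The members run along the grey cloud from Smc4 (0.56 at 40.2% GC) to Cdc20 (-1.03 at 55.6% GC).

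Of 105 other mitotic genes tested, from wider lists, 18 were called lower in KO (17.1%) and none higher, with a median log2 ratio of -0.21. At an unadjusted p under 0.05, 24 were lower (22.9%) and 1 was higher, against 22.7% lower and 4.76% higher among all tested models. The counts were 14 lower and 0 higher after centring, against 10.8% and 3.61% of all tested models. With equal FPKM sums they were 11 lower and 2 higher, against 8.65% and 6.19%. After removal of the trend, none of 104 was called, against 0.989% of coding genes lower and 0.812% higher. Their median was then -0.15, with 75 of 104 values below 0, against a median of 0.00 for all coding genes. Each list was set beside the 15.3% of all tested models that were called lower, and no list was tested against another.

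Among other regulators of entry 5 of 22 were called lower, and 2 with equal FPKM sums, with a median log2 ratio of -0.44 as deposited. The 3 with the smallest p were Mybl2, the B-MYB factor of CHR promoters, at 3.04 FPKM in KO and 6.87 FPKM in WT, Cks1b, a small Cdk-binding protein, at 17.3 FPKM in KO and 36.8 FPKM in WT, and Gtse1 at 6.64 FPKM in KO and 13.1 FPKM in WT. In the APC/C list 5 of 16 were called lower. Fzr1, which encodes the other APC/C activator Cdh1, stood at 10.1 FPKM in KO and 28.3 FPKM in WT. Ube2s, the enzyme that extends ubiquitin chains on APC/C substrates, stood at 26.0 FPKM in KO and 67.0 FPKM in WT, and the subunit Anapc13 at 23.6 FPKM in KO and 61.2 FPKM in WT.

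Of 32 other kinetochore and centromere genes, 3 were called lower, and 2 after centring or with equal FPKM sums: Mad1l1, the partner of Mad2, at 29.7 FPKM in KO and 90.6 FPKM in WT, Cenpm at 2.32 FPKM in KO and 9.17 FPKM in WT, and Spc24 at 12.8 FPKM in KO and 24.0 FPKM in WT. In the spindle list 4 of 21 were called lower. Kifc1, a minus-end motor, stood at 5.72 FPKM in KO and 20.5 FPKM in WT, the tubulin Tubb5 at 278 FPKM in KO and 523 FPKM in WT, and Kif18b, listed as 3000004C01Rik, at 10.7 FPKM in KO and 21.7 FPKM in WT. Tubulin genes have close copies between which reads could have been split. The cohesin and condensin list had a median above 0, at 0.10, with 10 of 14 ratios above 0 and 1 gene called lower, the condensin II subunit Ncaph2 at 23.4 FPKM in KO and 42.7 FPKM in WT. Ncaph2 was not called after centring or with equal FPKM sums, and with equal sums 2 genes of the list were called higher. These were the cohesin loader Nipbl, at 204 FPKM in KO and 123 FPKM in WT, and the cohesin release factor Wapal, at 93.5 FPKM in KO and 72.6 FPKM in WT. The median GC content of that list was 42.8%, the lowest of the lists. With the dependence on GC and length removed, its median was -0.10, with 9 of 14 values below 0.

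Genes of DNA replication, which act in the preceding phase, had a lower median ratio than the mitotic set, and that difference was not tested. Of 48 tested, 13 were called lower (27.1%) and none higher, against 15.3% and 1.79% of all tested models, with a median log2 ratio of -0.49. At an unadjusted p under 0.05 the counts were 19 lower (39.6%) and 0 higher, against 22.7% and 4.76%. With centring 7 were called lower and none higher, against 10.8% and 3.61% of all tested models. With equal FPKM sums 6 were called lower and none higher, against 8.65% and 6.19%. At an unadjusted p under 0.05 with equal sums 12 were lower, against 14.0%. The DNA polymerase delta subunit Pold1 stood at 3.31 FPKM in KO and 15.8 FPKM in WT, the licensing factor Cdt1 at 4.71 FPKM in KO and 15.5 FPKM in WT, and the clamp Pcna at 70.6 FPKM in KO and 168 FPKM in WT. Their median GC content was 48.8%, against 47.5% for the mitotic set. The log2 ratio fitted from GC and length had a median of -0.13 for the replication genes and -0.01 for the mitotic set. After removal of the trend the replication genes had a median of -0.27 with 41 of 48 values below 0, against the median of -0.13 for the mitotic set. Pcna was called lower, at -1.20, and no other of the 48 was called, against 0.989% of coding genes lower and 0.812% higher.

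**Figure D5:**
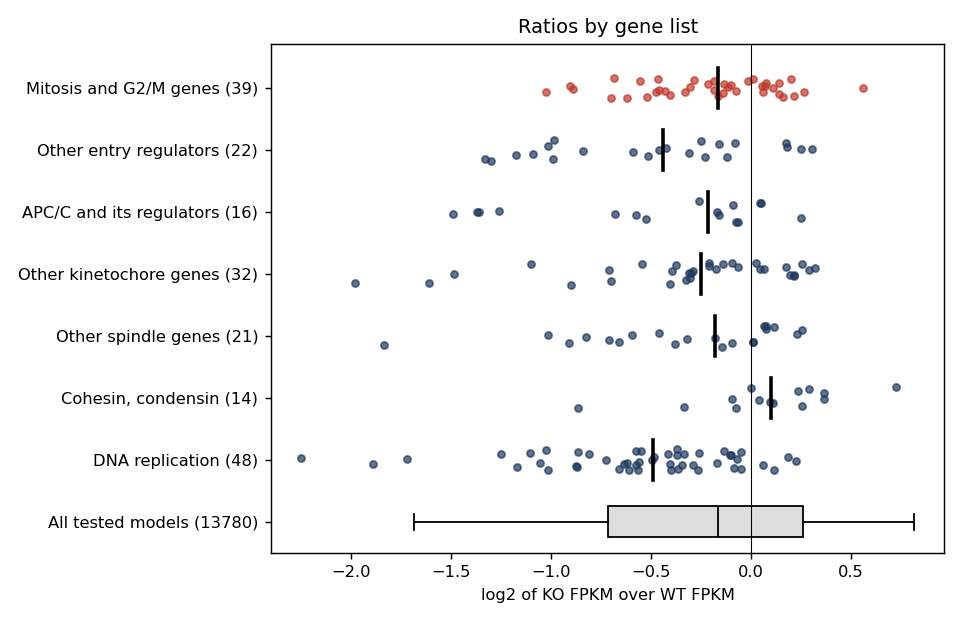
Log2 of KO FPKM over WT FPKM by gene list; points are genes, black bars are medians, and the box spans the middle 50% of the 13780 tested models with a finite ratio, with whiskers at the 5th and 95th percentiles. The 39 mitosis and G2/M genes have their median at -0.17, on that of all models, and the 48 replication genes at -0.49.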

How the data were processed

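The submitters' processing notes name TopHat2 and the mouse build mm9. The deposited table holds, per the file headers, 1 value for KO and 1 for WT per gene model, a log2 ratio, a test statistic, a p-value and a q-value. The headers do not name the unit; the layout is that of a table of FPKM, which the authors pooled over the libraries of a genotype. The sources used here do not give the testing tool, the annotation or the treatment of shared reads. The deposited q-values match a Benjamini-Hochberg adjustment across all 13834 models tested. Read counts were not used.

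The ratio was turned to KO over WT, and the implied standard error is its size over that of the test statistic. Members and lists were chosen with earlier results of these data known. Members were taken by symbol, the row of highest summed FPKM per symbol; other lists were also matched through RefSeq synonyms, 14 genes in all. Named beyond the members are the 3 called genes of smallest p per list and direction, and marker genes. GC content and length came from 1 GENCODE M21 transcript per gene (GRCm38), left out where longer than 1.2 times the model. The trend was a robust regression on cubic splines with 5 pieces (statsmodels 0.14.6), with p-values from residuals over the implied standard errors adjusted over the genes fitted. It was tested on data simulated from the fitted trend with normal noise of the implied standard errors. Such data cannot show whether the trend or the errors suit the real values. Alternatives were centring, equal FPKM sums, q thresholds of 0.01 and 0.10, minimums of 1 and 10 FPKM, a pseudocount of 1, and the row with the smallest p.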

Additional observations from a re-analysis of the deposited data

How the results depend on the processing

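The count of 4 lower members stayed within 1.5 times under centring, both other q thresholds, both minimums, the other row choice and the addition of Cdk1 and Kif20b, neither of them called. It was 0 once the dependence on GC and length was removed and 0 with KO and WT scaled to equal FPKM sums, a setting added after seeing the data that moves every log2 ratio up by 0.28. At an unadjusted p under 0.05 that scaling left 3 members lower and 2 higher, against 14.0% of models lower and 13.9% higher. The count of higher members, 0 as deposited, was 1 after centring and 1 with equal sums, Smc4 in both (adjusted p of 0.0384 and 0.0140 from the implied standard errors). The median of the members, -0.17, was 0.11 with equal sums, where that of all tested models was also 0.11, and -0.17 to 0.00 under the other settings. Of the calls over all models, 89.6% were lower as deposited, 74.9% after centring, 58.3% with equal sums and 54.9% after trend removal. Foxm1 was not called after centring, at -0.52. No paired analysis was possible because each genotype has a single pooled value, and for the same reason no library could be left out. The cause of these changes was not tested.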

Other observations

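Genes that hold cells out of the cycle were mostly uncalled, as were tested models in general. Of 11 tested, 1 was called higher in KO and 1 lower, against 1.79% of tested models higher and 15.3% lower, with a median log2 ratio of 0.06. Ccng1, a cyclin G gene induced by p53, stood at 43.0 FPKM in KO and 26.3 FPKM in WT (log2 0.71 ± 0.23 SE), with q = 0.0178 in the authors' deposited table. With the dependence on GC and length removed its value was 0.45 and it was not called. Cdkn1c, the Cdk inhibitor p57, was low in both, at 0.385 FPKM in KO and 1.33 FPKM in WT (q = 0.00845 in the authors' deposited table). Of 2 genes chosen after their values were seen, Cdkn1b, the inhibitor p27 of resting thymocytes, stood at 85.4 FPKM in KO and 81.8 FPKM in WT and Btg1, an anti-proliferative factor and the most abundant gene of the list, at 256 FPKM in KO and 198 FPKM in WT, and neither was called in the authors' deposited table. With KO and WT scaled to equal FPKM sums, Btg1 was called higher.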
